A study of Homo sapiens with 4 samples.

Results

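The genes described here are 33 sterol genes, of 30843 genes in the deposited table, which cover the synthesis of cholesterol, the control of that synthesis, and the movement of cholesterol out of the lysosome and out of the cell. They were taken by gene symbol, and each symbol had a single row. They were placed in a group of 23 genes that the sterol-sensing transcription factor SREBP2 drives, or that act with it in synthesis and uptake, a group of 7 genes of efflux driven by the liver X receptors (LXR) and of the lysosome, and 3 further genes of sterol sensing and storage. All 33 passed the filter on low values.

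The sequenced RNA came from wild type A549, a line of human lung adenocarcinoma cells, kept in 2D culture on well plates in medium with 10% fetal bovine serum. In the RM⁺ group (respiratory motion, 2 samples), the plate was in a sealed chamber connected to a pressure unit, and the air pressure moved between -5 and 0 mmHg. In the RM⁻ group (2 samples), the plate was not connected to the unit. Cells were taken off the plates with trypsin on day 4, and replicate 1 of both groups was labelled batch 1 and replicate 2 of both groups batch 2. Both groups were thus the same single cell line with serum, which itself carries lipoprotein cholesterol. The comparison, at a single time point, is between a plate in the chamber with pressure movement and a plate not connected to the unit. No chamber is described for the RM⁻ plate, so the parts of the sealed chamber and of the pressure movement cannot be told apart. Whether the replicates were separate cultures is stated in no source used here, and the p-values therefore reflect no more than the spread among these 4 samples, which may be technical. In bulk RNA, a change in the share of cells that express a gene and a change in the RNA per cell cannot be told apart.

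Cells make cholesterol from acetyl-CoA through the mevalonate pathway, which yields isoprenoid diphosphates, then squalene, then lanosterol, which is trimmed and reduced to cholesterol. When sterol in the endoplasmic reticulum is low, the escort protein SCAP carries SREBP2 to the Golgi, where it is cut, and its released part switches on nearly all genes of the pathway. INSIG proteins hold SCAP back when sterol is high, whereas LXR, switched on by oxidised sterols, drives export, and in the lung epithelium cholesterol is also a component of surfactant.

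The values are normalized counts, that is, read counts per gene after division by 1 size factor for each sample. The samples held 18754356 to 20412283 reads. Of all reads, 5.36% and 3.69% came from transcripts encoded in mitochondria in RM⁻ replicates 1 and 2, and 4.56% and 2.57% in the RM⁺ replicates; the part of this share in the results was not tested. Markers of epithelial cells summed to 105769 to 117117 normalized counts over the 4 samples, almost wholly from the keratin genes *KRT8*, *KRT18* and *KRT7*. The sums ranged from 132 to 155 for fibroblast markers, 3.03 to 16.3 for endothelial markers and 4.06 to 10.5 for immune markers. The epithelial marker *EPCAM* was low, between 45.4 and 67.9, and every sample had more of the fibroblast marker *COL1A1* (between 130 and 154). Fold changes are RM⁺ over RM⁻ on the scale log2(normalized count + 1), given with the standard error (SE). They were tested with limma (two-sided, Benjamini-Hochberg adjustment over 17632 genes), and a gene was called at an adjusted p under 0.05.

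Of the 33 sterol genes, 8 were called higher and 1 was called lower in the RM⁺ group, and 24 were not called. Over all genes tested, 1.46% were called higher and 0.794% lower, 2.26% in either direction, against 9 of 33 here. The 8 were *HMGCS1*, *MVD* and *IDI1* of the mevalonate arm, *LSS*, *EBP* and *DHCR7* of the later steps, the feedback gene *INSIG1* and the lysosomal gene *NPC2*. The gene called lower was *INSIG2*, the paralogue of *INSIG1*. The fold changes were moderate, and none of the 33 reached a log2 fold change beyond 1, which 1.15% of all genes did at an unadjusted p under 0.05. With the batch as a replicate block in the limma fit, 14 sterol genes were called higher and 1 lower, where 5.1% and 4.63% of all genes tested were called higher and lower. The 6 added were *ACAT2*, *MVK*, *TM7SF2*, *MSMO1*, *SC5D* and *NPC1*. With edgeR and TMM scaling, 6 were called higher and 1 lower, beside 1.27% and 0.72% of all genes tested. The fit of limma with TMM scaling also called 6 higher and 1 lower, beside 1.28% and 0.703%. Without the filter on low values, no gene of the table passed in limma (smallest adjusted p = 0.357), so the calls hold only with the filter.

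The direction of the fold change was shared by many more sterol genes than were called. In the limma fit it was above 0 in 29 of 33, where 49.3% of all genes tested were above 0, and the median was 0.16 for the 33 genes and -0.003 for all genes tested. Both RM⁺ samples lay above both RM⁻ samples in 23 sterol genes and below them in 3, where 22.2% of all genes tested lay above and 22.2% below. An unadjusted limma p under 0.05 was reached by 15 sterol genes with a higher and 1 with a lower RM⁺ mean, beside 7.68% and 6.8% of all genes. Within each batch, which has 1 sample per group, the RM⁺ sample was above the RM⁻ sample in both batches for 25 sterol genes and below it in both for 3, beside 30.8% and 31.9% of all genes.

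**Figure D1:**
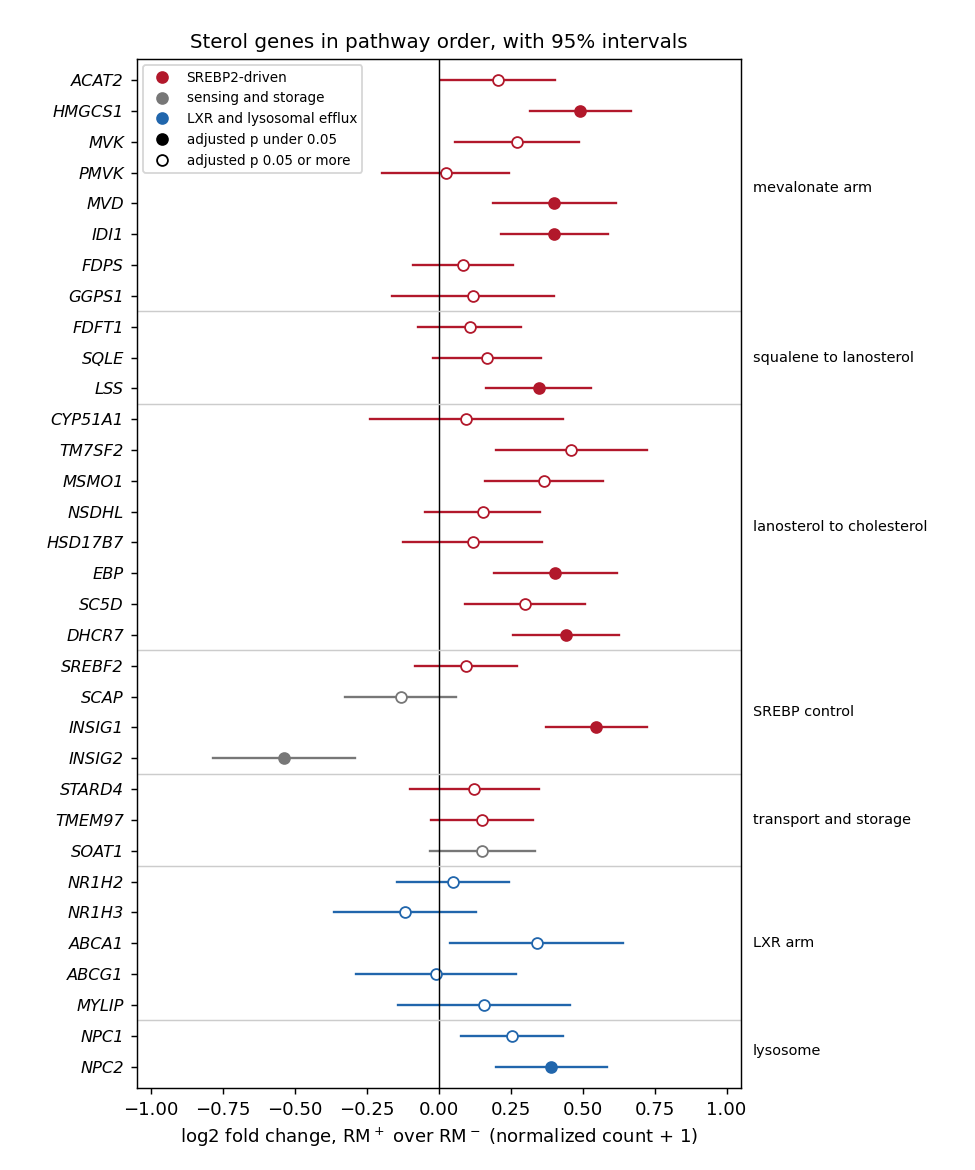
Sterol genes in pathway order (rows) with the log2 fold change, RM⁺ over RM⁻, on the horizontal axis. Points are limma estimates from 2 samples per group and lines are 95% intervals. Filled points mark the 9 genes called at an adjusted p under 0.05, of which 8 lie right of 0 and *INSIG2*, at -0.54, lies left of it.

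To show the DNA at which these genes start, promoter windows of 300 bases (250 before the annotated start, 50 after) were taken from RefSeq on GRCh38.p14. Of the 33 genes, 29 matched, with 41 windows, since some genes have more than 1 start. *ACAT2*, *FDFT1*, *SQLE* and *ABCG1* had no entry. The windows were searched on both strands for the letters CCAAT, the box bound by NF-Y, a factor that acts with SREBP at sterol genes, for TCACNCCAC, a form of the sterol regulatory element (SRE), and for the LXR element, the letters AGGTCA repeated after a gap of 4 bases. CCAAT stood in 24 of the 41 windows, which was 58.5%, against 34.6% of all 34943 promoters of the table. By group it stood in 74.1% of the 27 SREBP2-driven windows, in 3 of the 10 LXR and lysosomal windows, and in 1 of the 4 windows of the sensing and storage genes. At least 2 CCAAT boxes stood in 48.1% of the SREBP2-driven windows and in 10.8% of all promoters. The SRE letters stood in 1 window, that of *SREBF2* itself, and in 1.12% of all promoters, and the LXR letters stood in no sterol gene window and in 0.02% of all promoters. A match is a run of letters and not a measured site. The search allowed no mismatch, so an element that differs from these letters by a base was not found. The absence of LXR letters, also in the window of *ABCA1*, therefore does not show that a window lacks an LXR element. Printed below is the first listed window of each of the 3 called genes with the smallest adjusted p among those that were higher (*INSIG1*, *HMGCS1*, *DHCR7*). The same is printed for *INSIG2*, which went the other way, and for *SREBF2*, which holds the SRE letters. Further windows of *HMGCS1*, *DHCR7* and *INSIG2* are not printed. The printed windows run 5′ to 3′ on the strand of the gene, with CCAAT (or ATTGG, its reverse complement) and the SRE in capitals.
HMGCS1, chr5:43313363-43313662, minus strand: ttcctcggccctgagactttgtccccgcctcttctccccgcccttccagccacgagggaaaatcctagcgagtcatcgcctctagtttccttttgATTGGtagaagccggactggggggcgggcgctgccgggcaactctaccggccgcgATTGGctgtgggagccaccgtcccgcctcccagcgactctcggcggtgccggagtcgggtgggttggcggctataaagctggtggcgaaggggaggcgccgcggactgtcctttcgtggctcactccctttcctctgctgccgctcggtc
DHCR7, chr11:71448344-71448643, minus strand: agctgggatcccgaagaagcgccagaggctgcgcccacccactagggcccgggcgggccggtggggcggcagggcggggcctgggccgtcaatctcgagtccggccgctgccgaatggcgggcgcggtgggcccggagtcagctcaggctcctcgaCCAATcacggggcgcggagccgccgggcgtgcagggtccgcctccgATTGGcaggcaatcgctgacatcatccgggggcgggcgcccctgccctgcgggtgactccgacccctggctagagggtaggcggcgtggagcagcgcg
INSIG1, chr7:155297628-155297927, plus strand: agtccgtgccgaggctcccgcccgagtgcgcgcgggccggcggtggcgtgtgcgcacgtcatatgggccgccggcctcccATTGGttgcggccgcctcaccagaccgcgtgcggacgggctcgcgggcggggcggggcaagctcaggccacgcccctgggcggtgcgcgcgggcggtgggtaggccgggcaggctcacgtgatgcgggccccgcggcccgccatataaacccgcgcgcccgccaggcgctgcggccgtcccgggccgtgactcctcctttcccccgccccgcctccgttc
INSIG2, chr2:118088221-118088520, plus strand: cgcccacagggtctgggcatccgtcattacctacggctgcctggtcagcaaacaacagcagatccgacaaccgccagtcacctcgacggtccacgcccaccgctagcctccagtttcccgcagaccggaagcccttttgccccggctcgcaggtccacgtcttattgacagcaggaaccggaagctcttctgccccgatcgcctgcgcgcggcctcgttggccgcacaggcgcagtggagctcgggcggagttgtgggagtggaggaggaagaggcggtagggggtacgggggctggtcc
SREBF2, chr22:41832855-41833154, plus strand: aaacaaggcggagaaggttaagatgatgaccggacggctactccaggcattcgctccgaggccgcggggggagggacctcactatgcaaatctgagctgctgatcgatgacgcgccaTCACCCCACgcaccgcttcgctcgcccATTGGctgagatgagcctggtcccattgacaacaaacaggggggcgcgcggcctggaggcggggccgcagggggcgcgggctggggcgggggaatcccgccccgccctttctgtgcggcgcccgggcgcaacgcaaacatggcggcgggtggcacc

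The printed window of *HMGCS1* held ATTGG at 155 and 100 bases before the start. That of *DHCR7* held CCAAT at 94 and ATTGG at 48 bases before the start. The other window of *HMGCS1* and the other window of *DHCR7* held no match. In *INSIG1* the only match was ATTGG, 170 bases before the start. The *SREBF2* window held TCACCCCAC 133 bases and ATTGG 106 bases before the start, which do not overlap. The window of *INSIG2* held no match, nor did its other window. Of the 8 genes called higher, each had CCAAT in at least 1 window (9 of 13 windows), and of the 20 genes with an entry that were not called, 14 had it (15 of 26 windows), so CCAAT was also common in sterol genes that did not pass.

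In the mevalonate arm, *HMGCS1*, *MVD* and *IDI1* were higher in the RM⁺ group. *HMGCS1* (ENSG00000112972, GRCh38 chromosome 5 from 43287470 to 43313512), which encodes the cytosolic synthase that makes HMG-CoA, had 4064 and 4243 normalized counts in the RM⁻ samples (replicate 1, then replicate 2, here and in every pair of values that follows) and 5698 and 5976 in the RM⁺ samples. Both RM⁺ samples lay above both RM⁻ samples, and the gap was wider than the spread within either group. The means were 5837 ± 197 (SD, n = 2) against 4153 ± 127 (SD, n = 2), a 1.41-fold difference (log2 fold change 0.49, SE 0.083, limma adjusted p = 0.00401). The within-batch values, 0.49 in batch 1 and 0.49 in batch 2, were nearly the same. An antisense gene, ENSG00000261604, shares 703 exon bases with *HMGCS1*, and no source used here gives the strand setting of the counting. It was at 984 and 939.7 in the RM⁻ samples and at 1258 and 1387 in the RM⁺ samples (log2 fold change 0.46, limma adjusted p = 0.0138), so reads of the pair may not be fully told apart.

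*IDI1* (ENSG00000067064, chromosome 10 from 1039152 to 1049119) encodes the isomerase that sets the balance of the isoprenoid building blocks. Its RM⁻ samples were at 2151 and 2306 normalized counts and its RM⁺ samples at 2777 and 3118. The groups did not overlap (log2 fold change 0.40, SE 0.088, limma adjusted p = 0.0228), and without RM⁺ replicate 2 the call was lost (0.32, adjusted p = 0.167). Its antisense neighbour *IDI2-AS1*, which shares 643 exon bases, was at 366 and 400.5 against 469 and 547 (log2 fold change 0.40, limma adjusted p = 0.0953).

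*MVD* (ENSG00000167508, chromosome 16 from 88651935 to 88663161), the decarboxylase that forms isopentenyl diphosphate, was at 918 and 809.7 normalized counts in the RM⁻ samples. Its RM⁺ samples were at 1216 and 1066. In both groups the batch 2 sample was the lower, and the difference was much the same within the batches (0.41 and 0.40). The pooled log2 fold change was 0.40 (SE 0.101) with a limma adjusted p of 0.0464, close to the threshold. It was lost without RM⁻ replicate 2 (adjusted p = 0.173), without RM⁺ replicate 1 (0.226) and with TMM scaling (0.0632), edgeR (0.0575), DESeq2 (0.0503) or limma-voom (0.0653).

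The rest of the mevalonate arm was not called in the fit without the block. *ACAT2*, the cytosolic thiolase of the entry step, was at 1663 and 1929 normalized counts in the RM⁻ samples and at 1979 and 2156 in the RM⁺ samples, and *MVK*, mevalonate kinase, was at 673 and 604 against 801 and 741. Neither pair of groups overlapped, and the limma adjusted p was 0.317 for *ACAT2* and 0.214 for *MVK* without the block and 0.042 and 0.0303 with it. *PMVK*, the kinase that follows, had a log2 fold change of 0.02 with overlapping groups, and *GGPS1*, which makes geranylgeranyl diphosphate, had 0.12 with overlapping groups. *FDPS*, farnesyl diphosphate synthase, had 0.08. On the opposite strand, *TCP1* shares 397 exon bases with *ACAT2* and *MMAB* shares 306 with *MVK*. *TCP1* was at 5634 and 6249 against 4983 and 5181 (log2 fold change -0.22, limma adjusted p = 0.226). *MMAB* was at 739 and 781 against 792 and 802 (0.07, limma adjusted p = 0.817). As the strand setting of the counting is not given, reads of these pairs may not be fully told apart. Summed over the 8 genes of the arm, the normalized counts were 24.2% above those of the RM⁻ sample in batch 1 and 23.6% above in batch 2.

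From squalene to lanosterol, *LSS* (ENSG00000160285, chromosome 21 from 46188141 to 46228824), the cyclase that closes the sterol rings, was higher in the RM⁺ group. It was at 1420.4 and 1358 normalized counts in the RM⁻ samples and at 1805 and 1729.6 in the RM⁺ samples. The groups did not overlap, and the within-batch log2 fold changes were 0.35 and 0.35 (pooled 0.35, SE 0.086, limma adjusted p = 0.0438). The call was lost without RM⁻ replicate 2 (adjusted p = 0.123), RM⁺ replicate 1 (0.152) or RM⁺ replicate 2 (0.0773), and in limma-voom (0.0516). *FDFT1*, squalene synthase, and *SQLE*, squalene epoxidase, an oxygen-dependent and often rate-limiting step, were not called. *SQLE* was at 3647 and 3547 in the RM⁻ samples and at 3752 and 4352 in the RM⁺ samples, with the batches apart at 0.04 and 0.30 (pooled log2 fold change 0.17, 95% interval -0.02 to 0.36, limma adjusted p = 0.414). For *FDFT1* the log2 fold change was 0.11. The summed counts of these 3 genes were 9.56% and 15.7% above the RM⁻ sample in batches 1 and 2.

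From lanosterol to cholesterol, *DHCR7* and *EBP* were higher in the RM⁺ group. *DHCR7* (ENSG00000172893, chromosome 11 from 71428193 to 71452868), the reductase of the last step of a main branch, was at 4145 and 3662 normalized counts in the RM⁻ samples and at 5338 and 5254 in the RM⁺ samples. Both RM⁺ samples were above both RM⁻ samples, and the RM⁻ samples were the more spread (log2 fold change 0.44, SE 0.087, limma adjusted p = 0.0117). Without RM⁻ replicate 2 it was 0.35, with an adjusted p of 0.0568. Per kilobase of exon, *DHCR7* had the highest level of the 33 genes, at 1106 normalized counts per kilobase averaged over the 4 samples, followed by *HMGCS1* at 1062.

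*EBP* (ENSG00000147155, chromosome X from 48521799 to 48528716), the isomerase that moves a ring double bond, was at 554 and 613 normalized counts in the RM⁻ samples and at 761 and 783 in the RM⁺ samples. The groups did not overlap (log2 fold change 0.41, SE 0.101, limma adjusted p = 0.0453), and this call was the least stable of the 9. It was lost without RM⁻ replicate 1 (0.33, adjusted p = 0.135), RM⁺ replicate 1 (0.0637) or RM⁺ replicate 2 (0.145), and with TMM scaling (0.0528), edgeR (0.0505), DESeq2 (0.0706) or limma-voom (0.0544).

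Among the other genes of these steps, *TM7SF2*, *MSMO1* and *SC5D* had fold changes of similar size. *TM7SF2*, a sterol reductase, was at 422 and 335 normalized counts in the RM⁻ samples and at 502 and 533 in the RM⁺ samples, with log2 fold changes of 0.25 in batch 1 and 0.67 in batch 2. Its pooled value, 0.46, was the third highest among the 33 genes, and its limma adjusted p was 0.0666 without the block and 0.000421 with it. *MSMO1*, the methyl sterol oxidase, was at 2134 and 2075 against 2449 and 3005 (log2 fold change 0.37, limma adjusted p = 0.0596, with the block 7.47e-06), again with the wider gap in batch 2. *SC5D*, a desaturase, was at 910.0 and 967 against 1069.95 and 1249 (log2 fold change 0.30, limma adjusted p = 0.149, with the block 0.00427). In these 3 genes the RM⁺ samples lay above the RM⁻ samples in both batches, and RM⁺ replicate 2 was the highest of the 4. *NSDHL*, a dehydrogenase that removes a carbon, had 0.15 with no overlap, and *HSD17B7*, a keto reductase, had 0.12 with overlapping groups. *HSD17B7* shares 26.8% of its 31-base words with other genes, most of them with the pseudogene *HSD17B7P2*.

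*CYP51A1*, the lanosterol demethylase, had overlapping groups, at 168 and 169 normalized counts in the RM⁻ samples and at 165 and 198 in the RM⁺ samples (log2 fold change 0.10, 95% interval -0.24 to 0.43, limma adjusted p = 0.852). Its level is uncertain. Of its 31-base words, 89.9% occur in other genes, and another gene of the table, ENSG00000289027, lies on the same strand over 22628 of its bases, so reads that fit both may have gone uncounted. It had one of the lowest levels of the 33 genes, 48.8 normalized counts per kilobase, where *SQLE*, which acts earlier in the pathway, had 888. *GGPS1* shares 31.8% of its words, mainly with *TBCE*, and is uncertain in the same way.

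All 19 enzymes from *ACAT2* to *DHCR7* had log2 fold changes above 0, from 0.02 to 0.49 (median 0.27). Of these, 6 were called higher (1.46% of all genes tested), 11 with the block (5.1%), and 15 had both RM⁺ samples above both RM⁻ samples (22.2%). Their normalized counts summed to 32124 and 32385 in the RM⁻ samples and to 38242 and 40595.5 in the RM⁺ samples, which was 19.04% higher in batch 1 and 25.4% higher in batch 2. The RM⁻ sums differed by far less than the groups did. The widest gap was in the steps from lanosterol to cholesterol in batch 2, at 37.7%, against 20.6% in batch 1.

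**Figure D2:**
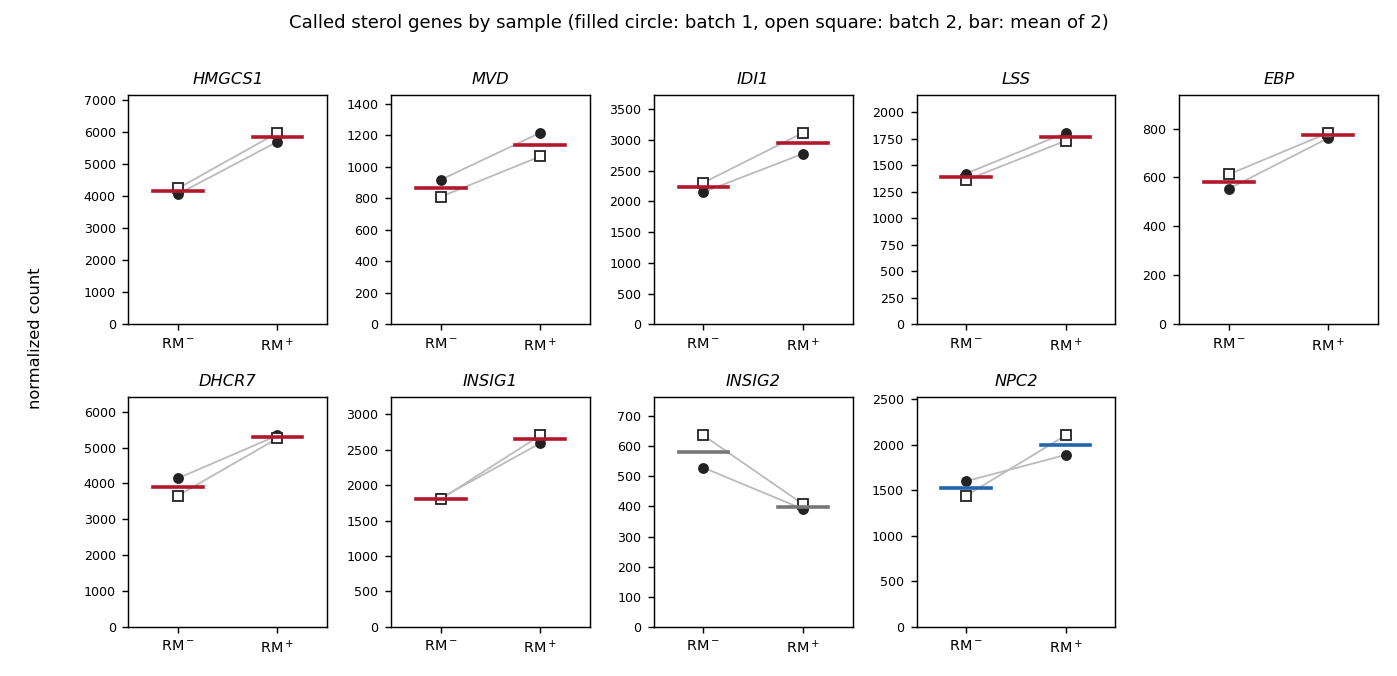
Normalized counts (vertical axes, each from 0) of the 9 called sterol genes in the 2 RM⁻ and 2 RM⁺ samples. Filled circles are batch 1, open squares are batch 2, grey lines join samples of a batch and bars are group means; in *INSIG2* both RM⁺ samples, at 391 and 408, lie below both RM⁻ samples, and in the other 8 genes both lie above.

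Among the genes that control SREBP2, *INSIG1* and *INSIG2* were called in opposite directions. *INSIG1* (ENSG00000186480, chromosome 7 from 155297776 to 155310235), an anchor of SCAP in the endoplasmic reticulum whose gene is itself an SREBP target, was at 1816 and 1803 normalized counts in the RM⁻ samples and at 2589 and 2699.9 in the RM⁺ samples. The RM⁻ samples were almost equal and both RM⁺ samples were above them. The means were 2644 ± 78.4 (SD, n = 2) and 1809 ± 9.17 (SD, n = 2), a 1.46-fold difference (log2 fold change 0.55, SE 0.083, limma adjusted p = 0.00216). *INSIG1* had the highest log2 fold change of the 33 genes, and it and *HMGCS1* were the only sterol genes called in every one of the 14 alternatives but the one without a filter.

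*INSIG2* (ENSG00000125629, chromosome 2 from 118088452 to 118110997) encodes a related anchor, and its gene is not known as an SREBP target. It was at 529 and 636 normalized counts in the RM⁻ samples and at 391 and 408 in the RM⁺ samples. Both RM⁺ samples lay below both RM⁻ samples, and the RM⁻ samples were the further apart. The means were 399.6 ± 11.8 (SD, n = 2) against 582 ± 75.7 (SD, n = 2), a 1.45-fold lower level in the RM⁺ group (log2 fold change -0.54, SE 0.117, limma adjusted p = 0.0216). Without RM⁻ replicate 2, the higher RM⁻ sample, it was -0.40 with an adjusted p of 0.138. The ratio of *INSIG1* to *INSIG2* normalized counts was 3.44 and 2.84 in the RM⁻ samples and 6.62 and 6.62 in the RM⁺ samples.

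The transcription factor and its escort were not called. *SREBF2*, which encodes SREBP2, was at 4433 and 4089.6 normalized counts in the RM⁻ samples and at 4546 and 4555 in the RM⁺ samples (log2 fold change 0.10, 95% interval -0.08 to 0.27, limma adjusted p = 0.668). *SCAP* was at 1369 and 1232 against 1195 and 1174, with both RM⁺ samples below both RM⁻ samples (log2 fold change -0.13, limma adjusted p = 0.561). SREBP2 is controlled by cleavage of the protein, which RNA does not measure.

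Of the genes of transport and storage, none was called. *SOAT1*, which esterifies cholesterol for storage in droplets, was at 1743 and 1889 normalized counts in the RM⁻ samples and at 1971 and 2059 in the RM⁺ samples, without overlap (log2 fold change 0.15, limma adjusted p = 0.458). *TMEM97*, a membrane protein that binds NPC1, had 0.15 without overlap, and *STARD4*, a carrier of sterol through the cytosol, had 0.12 with overlapping groups. The batches of *STARD4* went apart, at 0.30 in batch 1 and -0.05 in batch 2. On the opposite strand, *IFT20* shares 361 exon bases with *TMEM97* (log2 fold change 0.06, limma adjusted p = 0.868). Reads of that pair may not be fully told apart, since the strand setting is not given.

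**Figure D3:**
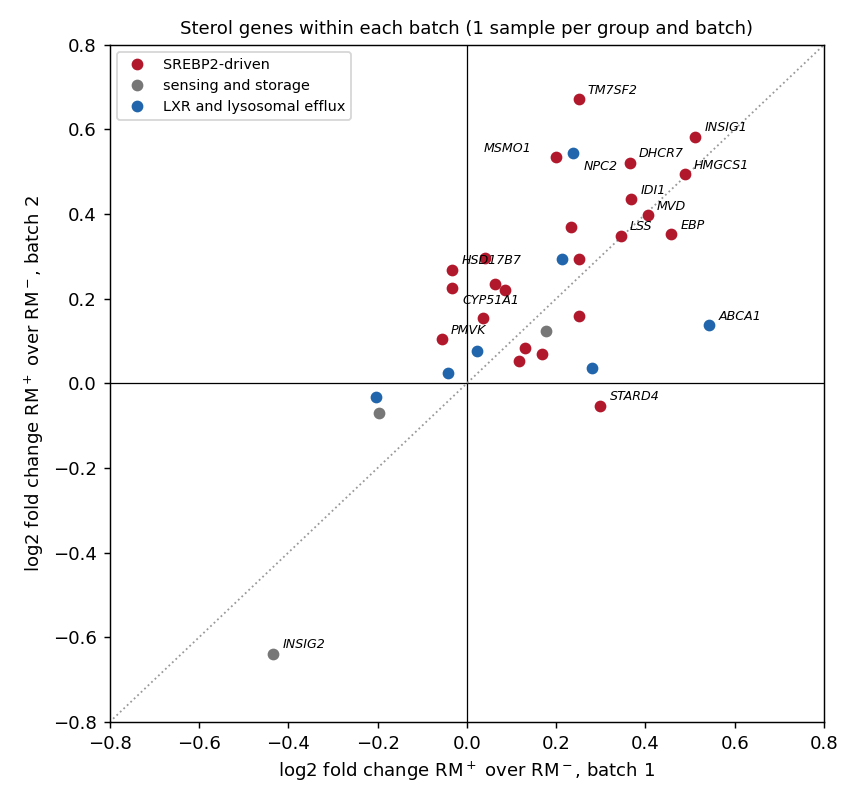
Log2 fold change, RM⁺ over RM⁻, of the 33 sterol genes in batch 1 (horizontal axis) and batch 2 (vertical axis), with 1 sample per group and batch. The dotted line marks equal values; 25 genes lie at the upper right of both zero lines, 3 at the lower left, and *ABCA1* has 0.54 in batch 1 and 0.14 in batch 2.

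In the LXR arm, none of 5 genes was called by limma, 1 had an unadjusted p under 0.05 (*ABCA1*) and edgeR called none either. Over all genes tested in limma, 1.46% were called higher, and 7.68% were higher at an unadjusted p under 0.05. *ABCA1*, the pump that loads cholesterol and phospholipid onto apolipoprotein A-I and a standard LXR target, was at 227 and 298 normalized counts in the RM⁻ samples and at 331 and 328 in the RM⁺ samples. Both RM⁺ samples were above both RM⁻ samples, but the RM⁻ samples were far apart (log2 fold change 0.34, 95% interval 0.04 to 0.64, limma unadjusted p = 0.0288, adjusted p = 0.269, with the block 0.0561). The gap came mostly from batch 1, at 0.54, against 0.14 in batch 2. *ABCG1*, the pump that loads cholesterol onto mature HDL and also an LXR target, was at 284 and 258 against 276 and 263, with overlapping groups (log2 fold change -0.01, 95% interval -0.29 to 0.27, limma adjusted p = 0.987). *MYLIP*, an LXR-induced ubiquitin ligase that marks lipoprotein receptors for breakdown, had 0.16 (95% interval -0.14 to 0.46). The receptors themselves had 0.05 for *NR1H2* (LXRβ), with overlapping groups, and -0.12 for *NR1H3* (LXRα), where both RM⁺ samples were below both RM⁻ samples. The intervals of *ABCG1* and *NR1H2* end below 0.35, the smallest log2 fold change of a called enzyme, and those of *ABCA1* and *MYLIP* reach beyond it. The summed counts of the 5 genes were 3.67% and 4.41% above the RM⁻ sample in batches 1 and 2.

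In the lysosome, both genes for the proteins that pass cholesterol out of the lumen had fold changes above 0, and *NPC2* was called. *NPC2* (ENSG00000119655, chromosome 14 from 74476192 to 74494177), the soluble carrier, was at 1602 and 1443 normalized counts in the RM⁻ samples and at 1889.9 and 2104 in the RM⁺ samples. The groups did not overlap (log2 fold change 0.39, SE 0.092, limma adjusted p = 0.0324). The gap was 0.24 in batch 1 and 0.54 in batch 2, and the call was lost without RM⁻ replicate 2 (0.32, adjusted p = 0.117) or RM⁺ replicate 2 (0.31, adjusted p = 0.192). *NPC1*, the membrane protein that takes cholesterol from NPC2, was at 1723 and 1718 in the RM⁻ samples and at 1999 and 2107 in the RM⁺ samples. Its groups did not overlap and its RM⁻ samples were nearly equal (log2 fold change 0.25, limma adjusted p = 0.154, with the block 0.00742). On the opposite strand, *RMC1* shares 604 exon bases with *NPC1* (log2 fold change 0.16, limma adjusted p = 0.574). There *ISCA2* shares 103 with *NPC2* (0.06, limma adjusted p = 0.870). As the strand setting of the counting is not given, reads of these pairs may not be fully told apart.

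**Figure D4:**
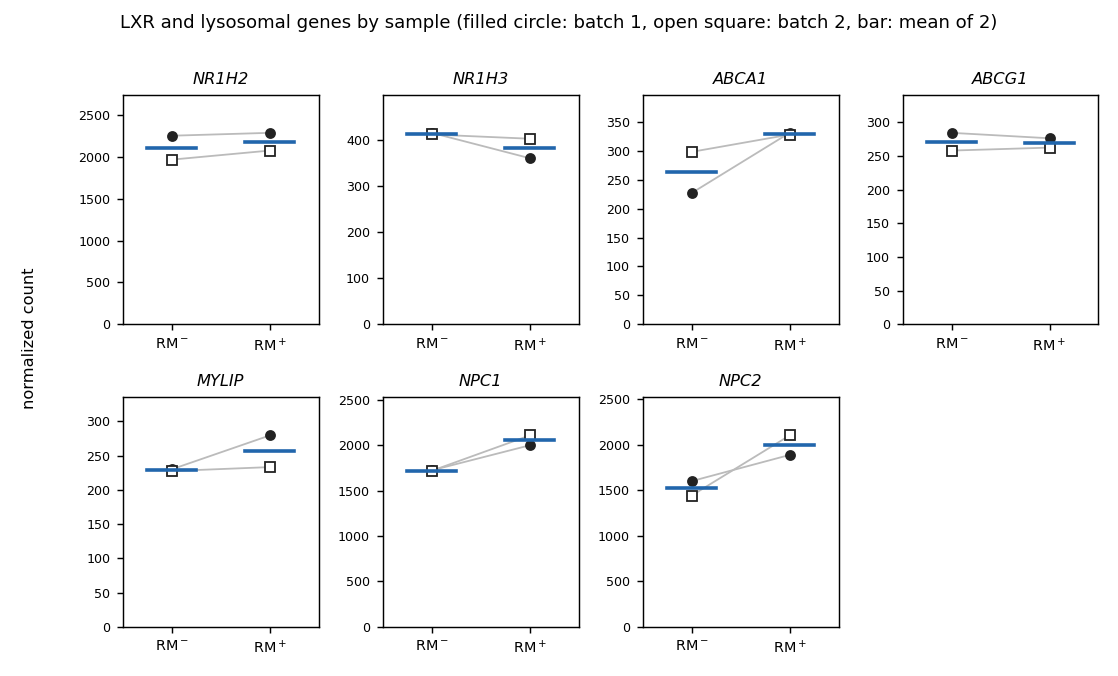
Normalized counts (vertical axes, each from 0) of the 7 LXR and lysosomal genes in the 2 RM⁻ and 2 RM⁺ samples. Filled circles are batch 1, open squares are batch 2, grey lines join samples of a batch and bars are group means; *NPC2* alone was called, and the groups of *NR1H2* and *ABCG1* overlap.

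Set side by side, the 23 SREBP2-driven genes had a median log2 fold change of 0.21 and the 7 LXR and lysosomal genes one of 0.16, beside -0.003 for all genes tested. Within the second group the medians were 0.05 for the 5 LXR genes and 0.32 for the 2 lysosomal genes. Of the SREBP2-driven genes, 23 had values above 0, 7 were called, 12 with the block, and 18 had no overlap, all with the RM⁺ samples above. Of the LXR and lysosomal genes, 5 had values above 0, and 1 was called, 2 with the block. Among these genes, 4 had no overlap with the RM⁺ samples above and 1 with them below. Over all genes tested, 49.3% had values above 0, 1.46% were called higher and 5.1% were called higher with the block. Without overlap, 22.2% of all genes had the RM⁺ samples above and 22.2% had them below. Within the batches the SREBP2-driven median was 0.23 and 0.29, and the LXR and lysosomal median was 0.21 and 0.08. Without RM⁺ replicate 1 the LXR and lysosomal median was 0.03. Whether the groups differ from each other was not tested.

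Averaged over both groups, batch 2 minus batch 1 was -0.19 to 0.19 on the log2 scale over the 33 genes, with a median of 0.06, and it was above 0 in 22 and below 0 in 11. Among the called genes it was -0.19 for *MVD*, against a group difference of 0.40, and 0.16 for *INSIG2*, against -0.54, and it was nearest to 0 in *NPC2* (0.002) and *INSIG1* (0.03).

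**Figure D5:**
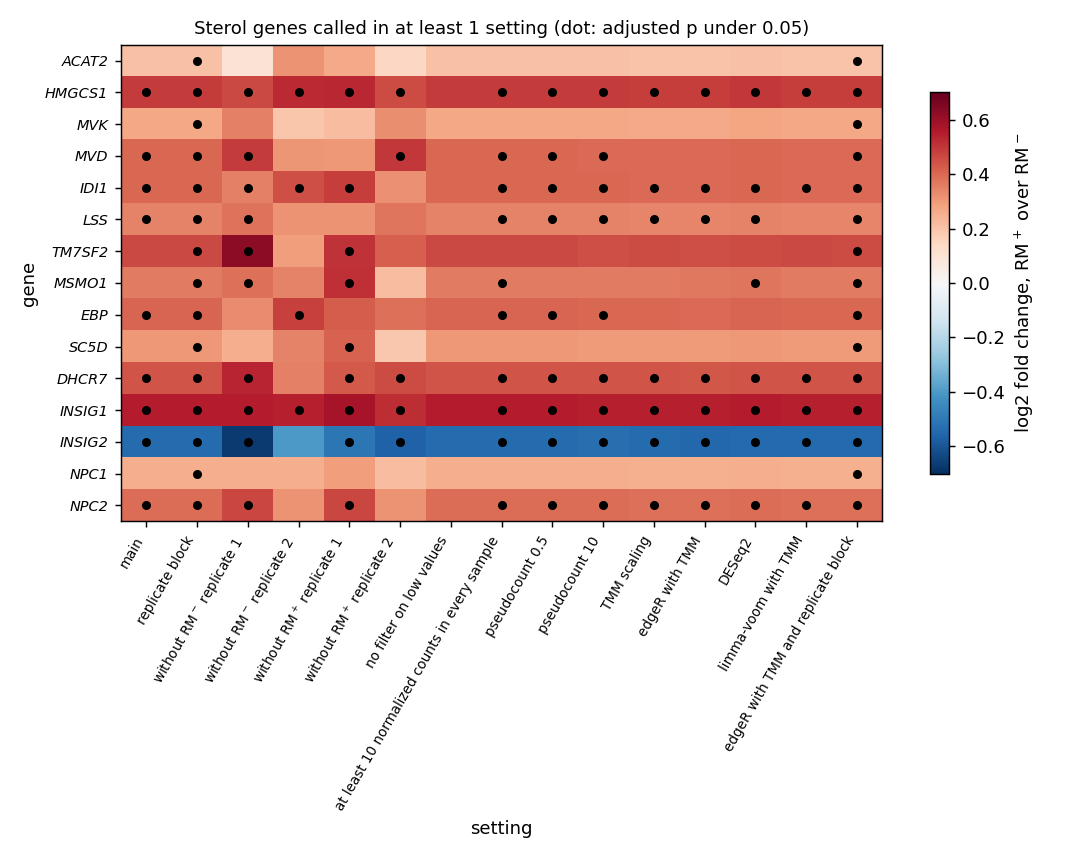
Log2 fold change (colour, RM⁺ over RM⁻) of the 15 sterol genes called in at least 1 setting (rows) under the reported fit and 14 alternatives (columns), with a dot where the adjusted p was under 0.05. *INSIG1* and *HMGCS1* carry a dot in every column but that without a filter, and the columns with a replicate block carry 15 dots each.

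Other sterol genes, which feed into or branch from these steps, were counted in the same fit. Of 24 tested genes of sterol handling (SREBP processing, sterol-sensing ligases, sterol transfer, oxysterol synthesis, lipoprotein receptors and LXR partners), 1 was called higher and none lower by limma, with a median of 0.10, where 1.46% of all genes were called higher and 0.794% lower. At an unadjusted p under 0.05 there were 3 higher and none lower, beside 7.68% and 6.8% of all genes, so these counts were near those shares. The gene called was *CYP7B1*, an oxysterol hydroxylase that clears side-chain oxysterols, with 90.8 and 139 normalized counts in the RM⁻ samples and 192 and 247 in the RM⁺ samples (log2 fold change 0.95, SE 0.200, limma adjusted p = 0.0171). Both RM⁺ samples were above both RM⁻ samples. With the block, *GRAMD1B*, which carries sterol from the plasma membrane to the endoplasmic reticulum, and *LRP8*, an apolipoprotein receptor, were also called higher, beside 5.1% of all genes. *GRAMD1B* was at 1774.5 and 1921 against 2309.6 and 2302 (log2 fold change 0.32, limma adjusted p = 0.0609, with the block 0.000219). *LRP8* was at 1833 and 1754 against 2212 and 2011 (0.23, adjusted p = 0.209, with the block 0.0156). Of 10 genes that draw on the isoprenoid branch (ubiquinone, dolichol and protein prenylation), none was called by limma, with 1 higher and 1 lower at an unadjusted p under 0.05, near the shares over all genes. With the block, which called 4.63% of all genes lower, *RABGGTB*, a subunit of the enzyme that prenylates Rab proteins, was called lower, at 1114 and 1108 against 1057 and 829 (-0.25, adjusted p = 0.295, with the block 0.0291), most of it in batch 2.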

How the data were processed

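RNA from 4 samples of A549 cells in 2D culture, 2 RM⁺ and 2 RM⁻, was sequenced as poly(A) RNA with a strand-marking kit. The authors deposited a table of 30843 genes in which the signal of each sample is the gene's read count divided by a DESeq2 size factor. The submitters' processing notes name HISAT2 2.1.0, featureCounts 1.6.3, DESeq2 1.24.0, Trimmomatic 0.38, FastQC 0.11.7 and GRCh38. No source used here gives the annotation release or the strand setting of the counting. The deposited fold changes, p-values and means are the authors' own comparison and were not used; 0 columns held other samples. The smallest value above 0 of each column, taken as 1 read, gave whole reads for 100% of values (within 1e-06), 18754356 to 20412283 per sample. That depth limits the precision of low genes.

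A gene was tested if 2 or more samples had 10 or more normalized counts (17632 genes), with limma 3.58.1 (trend) on log2(normalized count + 1) in R 4.3.3, which understates the change of low genes. Its 2 residual degrees of freedom were joined by a prior of 14.8 shared across genes, on which the adjusted p-values rest, since the smallest two-sided permutation p for 2 against 2 samples is 0.333. The labels pair replicates by batch, and deviations of same-numbered samples from their group means had a correlation across genes of 0.168 over 17632 genes and 0.314 over the 10289 with a mean above 200. The fit with this block has 1 residual degree of freedom and takes its spread wholly from the other genes. The alternatives were the block, leaving out each sample, 2 other filters, 2 other pseudocounts, TMM scaling, edgeR 4.0.16, DESeq2 1.42.0 and limma-voom on the recovered reads, and, added after seeing the data, edgeR with the block. Without a sample, its group is in a single batch, and the fit gives its remaining sample the spread of the other group.

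The 33 genes, their groups and the further lists were chosen with earlier results of these data known. Every one of the 33 genes is named. Values per sample are given for those called with or without the block and for the largest change in each step of the pathway, with *SQLE*, *CYP51A1*, *ABCG1*, *SREBF2* and *SCAP* added after their values were seen. Further sterol genes are named where called. *CYP27A1* did not pass the filter, and *CH25H*, *COL1A2* and *CD3E* were not analysed, as no row was found under these symbols. The sum of fibroblast markers therefore leaves out *COL1A2*, and that of immune markers leaves out *CD3E*. Coordinates are those of the table. Levels per kilobase, exon overlaps and shared 31-base words come from GENCODE v29, which may differ from the annotation of the counting. The fitting was tested on simulated data, without batches and with planted changes larger than that of any of the 33 genes. It therefore does not show how well changes as small as theirs are found.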

Additional observations from a re-analysis of the deposited data

How the results depend on the processing

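Of the 33 sterol genes, 28 kept their sign in all 14 alternatives, and none of the calls reversed. With the replicate block 14 were called higher, 12 of them SREBP2-driven, and 1 lower, and edgeR with TMM and the block, added after seeing the data, gave the same counts. Of all genes tested, 5.1% were higher and 4.63% lower with the block in limma, and 4.86% and 4.76% with the block in edgeR. The further sterol and isoprenoid genes called in both of these fits numbered 3 higher and 1 lower, beside the same shares of all genes. The block changed no other count or median by more than the replicate spread. Without a filter on low values 0 were called in every list and 0 over all 30843 genes. limma-voom with TMM called 5 higher, 4 of them SREBP2-driven (1.28% of all genes were higher), limma with TMM scaling 6 (1.28%), edgeR with TMM 6 (1.27%) and DESeq2 7 (1.78% of the 12846 genes to which it gave an adjusted p), each with 1 lower. Of all genes, 0.686% were lower in limma-voom, 0.703% in limma with TMM scaling, 0.72% in edgeR and 0.996% in DESeq2. The further genes called higher numbered 2 in DESeq2 (1.78% of all genes) and 2 with at least 10 normalized counts in every sample (1.73%). Leaving out each sample in turn gave 4 to 9 sterol genes higher (4 without RM⁻ replicate 2 and 4 without RM⁺ replicate 2) and 0 to 1 lower (0 without RM⁻ replicate 2), where 1.18% to 2.38% of all genes were higher and 0.714% to 1.65% lower, 4 to 8 SREBP2-driven genes higher, 0 to 2 further genes higher (0 without RM⁺ replicate 2, 2 without RM⁻ replicate 2) and 0 to 1 lower (1 without RM⁺ replicate 1). The SREBP2-driven median was then 0.15 to 0.28 and the LXR and lysosomal median 0.0278 to 0.22, the former without RM⁺ replicate 1. The causes were not tested.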

Other observations

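Of the long non-coding RNA genes that overlap a sterol gene on the opposite strand, 9 were tested in the same limma fit. Among the 9, 7 had a log2 fold change above 0, beside 49.3% of all genes tested. While 2.26% of all genes were called in either direction, 1 of the 9 was called, ENSG00000261604 beside *HMGCS1*. Its values and those of *IDI2-AS1* are given above. *CYP51A1-AS1*, beside *CYP51A1*, had the largest log2 fold change of the 9 at a low level, with 8.07 and 6.69 normalized counts in the RM⁻ samples (replicate 1, then 2) and 21.3 and 16.2 in the RM⁺ samples (1.23, limma unadjusted p = 0.023, adjusted p = 0.245). *RUSC1-AS1*, which shares 693 exon bases with *FDPS*, was at 2046 and 2229 against 2235 and 2324 (0.09, limma adjusted p = 0.684). ENSG00000223901, beside *LSS*, was at 99.9 and 104 against 119 and 123 (log2 fold change 0.24, limma adjusted p = 0.602). *DHCR7-DT*, beside *DHCR7*, was at 42.4 and 60.2 against 58.9 and 66.6 (0.31, adjusted p = 0.66), with overlapping groups. *SREBF2-AS1*, beside *SREBF2*, was at 331 and 302 against 321 and 296 (-0.04, adjusted p = 0.943), and *STARD4-AS1*, beside *STARD4*, was at 292 and 289.7 against 266 and 236 (-0.21, adjusted p = 0.507), with both RM⁺ samples below both RM⁻ samples. ENSG00000255046, beside *FDFT1*, was at 14.1 and 5.74 against 9.14 and 13.1 (0.25, limma adjusted p = 0.907), with overlapping groups. As no source used here gives the strand setting of the counting, these values may hold reads of the sterol genes.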
